A study of Mus musculus with 18 samples.

Results

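Aspartate was added to L929 cells treated with both AOA and HT-DNA, and the gene programs that it moved were measured by RNA-seq. The comparison set the 3 libraries labelled HT-DNA+AOA+Asp against the 3 labelled HT-DNA+AOA. These 6 of the 18 libraries of the series were chosen by the treatment in their labels alone. L929 is an established line of mouse fibroblasts, here of genotype WT in every group. AOA (aminooxyacetic acid) blocks aminotransferases, the enzymes that pass amino groups between amino acids and keto acids, among them the transaminases that make aspartate. HT-DNA is herring testis DNA, which sets off cytosolic DNA sensing when it is carried into cells with Lipofectamine 2000. As the study describes for these cells, pretreatment with 0.5 mM AOA lasted 1 h, stimulation with 0.5 μg/ml HT-DNA then lasted 6 h, and aspartate was used at 20 mM. Of the other groups, HT-DNA had neither AOA nor aspartate, AOA and AOA+Asp had no HT-DNA, and Mock was labelled DMSO. Each had 3 libraries, which the study describes as independent cultures, so p-values measure the spread between cultures of 1 cell line. No group analysed here received aspartate without AOA.

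Cytosolic DNA is read by cGAS, which makes cGAMP and activates STING, the kinase TBK1 and the transcription factors IRF3 and NF-κB. These switch on Ifnb1 and chemokines, and the secreted interferon then acts through its receptor and JAK kinases on the interferon-stimulated genes (ISGs). A shortage of amino acids is read separately, through the kinase GCN2 and phosphorylation of eIF2α, which favours translation of ATF4 and transcription of its stress targets. Aspartate is a precursor of asparagine, pyrimidines and purines.

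The 6 compared libraries held 18273829 to 20822783 counts, within the 17901605 to 24057343 of the whole series. Levels below are CPM, counts scaled to a common library size after TMM, which compare libraries and not genes, and changes are log2 fold changes with Benjamini-Hochberg adjusted p-values from edgeR's quasi-likelihood fit of all 18 libraries, called at an adjusted p under 0.05. The HT-DNA+AOA libraries stood apart from each other more than those of any other group. A chi-square test of the counts of each pair of replicates gave 24.6, 62.4 and 16.9 per degree of freedom for their 3 pairs, compared with 2.72 to 4.67 for HT-DNA+AOA+Asp and 3.52 to 12.4 for the other groups. Of 11 fibroblast markers, 7 passed the filter on low counts, and their summed level was, scaled to the library total, 4658 to 5870 CPM in HT-DNA+AOA and 5617 to 5645 CPM in HT-DNA+AOA+Asp. Vim, S100a4, Col1a1, Col1a2, Pdgfra and Pdgfrb were present, whereas Thy1 had at most 4 counts, Fap at most 3, and Dcn and Lum at most 1 in any library. Of 9 macrophage and leukocyte markers, 3 passed, with a summed level of 134 to 144 CPM in HT-DNA+AOA and 129 to 141 CPM in HT-DNA+AOA+Asp, nearly all of it Cd68, and Ptprc, Adgre1 and Cd3e were at 0 in every library. None of 8 epithelial markers passed, at up to 0.67 CPM summed, and 2 of 7 endothelial markers did, at 1.88 to 3.6 CPM. In bulk RNA, fewer cells of a type and less RNA per cell cannot be told apart.

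Promoter stretches of genes from the programs described below are shown first, since each holds a motif known for the regulation of its program. They were taken from RefSeq windows on GRCm38.p6, reaching from 250 bases before to 50 bases after each start site, and 481 of the 632 list members found in the data had a window. They belong to the 1 to 3 tested members at 10 CPM or more with the largest fold changes among those with the motif, and each motif lies before the start site. Capitals mark the motif, read on either strand: the interferon-stimulated response element (ISRE, which is GAAA, any 2 bases and GAAA) in Irgm2, its neighbour Igtp with a nearly identical stretch, and Oas3, the κB site (GGGA, any 2 bases and TTCC, with 2 overlapping matches in Cxcl2) in Cxcl2 and Cxcl10, the amino acid response element (TGATGNAA, here on the opposite strand) in Chac1 and Herpud1, the sterol regulatory element (TCACNCCAC) in Hmgcs1, the LXR response element (GGTTACT, any 2 bases and CGGTCA, opposite strand) in Abca1, and the ER stress response element (CCAAT, any 9 bases and CCACG) in Syvn1.
Irgm2, chr11:58214873-58214962, plus strand: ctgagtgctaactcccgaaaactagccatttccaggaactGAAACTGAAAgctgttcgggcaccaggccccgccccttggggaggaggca
Igtp, chr11:58199482-58199555, plus strand: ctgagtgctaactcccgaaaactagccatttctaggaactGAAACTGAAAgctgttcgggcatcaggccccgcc
Oas3, chr5:120777685-120777774, minus strand: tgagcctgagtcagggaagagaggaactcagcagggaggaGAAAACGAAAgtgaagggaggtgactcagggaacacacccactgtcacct
Cxcl2, chr5:90903762-90903852, plus strand: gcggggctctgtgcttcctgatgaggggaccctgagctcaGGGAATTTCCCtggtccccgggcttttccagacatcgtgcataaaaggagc
Cxcl10, chr5:92348999-92349088, minus strand: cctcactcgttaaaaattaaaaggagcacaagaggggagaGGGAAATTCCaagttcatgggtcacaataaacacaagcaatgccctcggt
Chac1, chr2:119351009-119351096, plus strand: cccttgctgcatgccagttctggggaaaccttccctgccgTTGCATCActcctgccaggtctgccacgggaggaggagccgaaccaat
Herpud1, chr8:94386277-94386364, plus strand: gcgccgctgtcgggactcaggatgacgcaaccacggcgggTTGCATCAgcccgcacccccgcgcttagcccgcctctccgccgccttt
Hmgcs1, chr13:119690174-119690262, plus strand: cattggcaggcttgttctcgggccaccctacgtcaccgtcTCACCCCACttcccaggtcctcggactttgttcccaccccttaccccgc
Abca1, chr4:53159908-53160002, minus strand: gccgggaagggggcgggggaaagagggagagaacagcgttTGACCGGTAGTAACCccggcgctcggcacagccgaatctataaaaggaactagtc
Syvn1, chr19:6046492-6046575, plus strand: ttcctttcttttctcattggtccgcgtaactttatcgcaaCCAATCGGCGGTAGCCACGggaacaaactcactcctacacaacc
The ISRE was in 27 of 63 windows of interferon-stimulated effectors (42.9%) and in 3.44% of all 32851 windows. The κB site was in 6 of 26 chemokine and cytokine windows (23.1%) and 1.47% of all, the amino acid response element in 9 of 32 windows of its program (28.1%) and 3.97% of all, and the ER stress response element in 9 of 17 windows of ER folding genes (52.9%) and 0.119% of all. The sterol element was in 1 of 20 sterol windows (5%) and 1.24% of all. The LXR element was in 3 of 19 lipid windows, Abca1, Srebf1 and Fasn, which were the only 3 of all windows with it (0.00913%). The LXR letters are long and leave only 2 bases open, so they pick out near-identical copies of 1 site. Their share is therefore no measure of enrichment in the lipid program. A match describes these letters only, and binding was not measured.

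With aspartate, ISGs and chemokines fell together to about the level of cells that had HT-DNA without AOA. Stress genes of the ATF4 program fell part of the way. Genes of ER folding and of the LXR and SREBP1 lipid program rose more often than they fell. Changes were small in sterol synthesis (9 higher and 4 lower of 22, median 0.11) and DNA replication (15 higher and 2 lower of 36, median 0.17). Of 14263 genes tested, 3386 rose (23.7%) and 3411 fell (23.9%), 47.7% in all, and 475 and 626 of these changed by a log2 fold change of at least 1 in size. Scaling by library totals in place of TMM moved the split to 4194 higher and 2548 lower and the median of all genes from -0.01 to 0.08. The main fit shares its estimate of spread over all groups. A fit of the compared libraries alone called 4278 genes, 2201 higher and 2077 lower. The AOA effect in HT-DNA cells (HT-DNA+AOA minus HT-DNA) called 3246 genes higher (22.8%) and 3231 lower (22.7%). The difference left with aspartate (HT-DNA+AOA+Asp minus HT-DNA) called 3303 higher (23.2%) and 3346 lower (23.5%), of which 486 reached a log2 fold change of 1 in size. The aspartate effect, the AOA effect and the difference left share libraries, so their values are set side by side only.

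**Figure D1:**
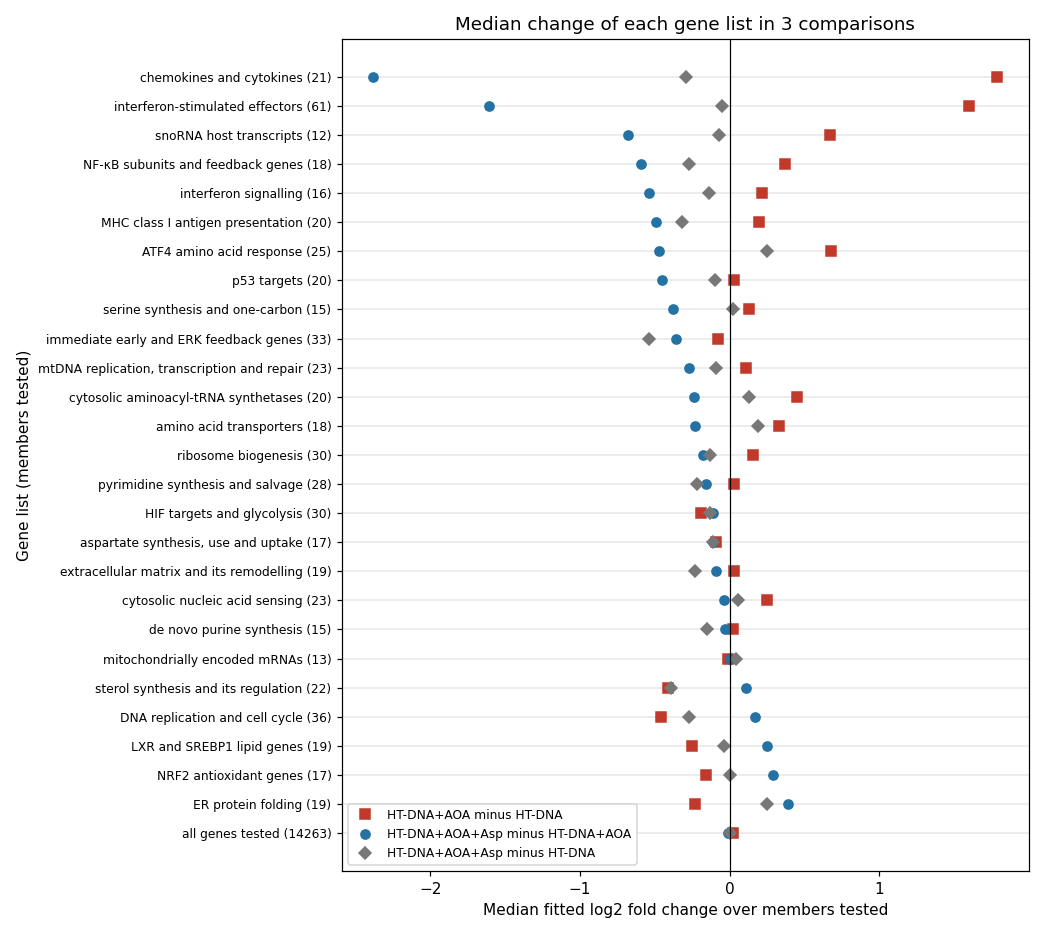
Median fitted log2 fold change of each gene list (y axis, with the number of members tested) in the AOA effect (red squares), the aspartate effect (blue circles) and the difference left from HT-DNA (grey diamonds). Chemokines and interferon-stimulated effectors lie farthest to the right for AOA and farthest to the left for aspartate, and the median of all genes lies near 0 in each comparison.

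Of the interferon-stimulated effectors, 61 of 67 were tested, and 56 of them fell with aspartate and 1 rose (91.8% lower against 23.9% of all genes), with a median log2 fold change of -1.61 against -0.01 over all genes tested. Members such as Tgtp1, low in every other group, passed the filter on low counts through HT-DNA+AOA alone and could only fall. Where every library needed 10 counts, 39 members were lower, with a median of -1.25. In the AOA effect 53 of the 61 were higher and 3 lower, with a median of 1.60, and the difference left had a median of -0.05 with 4 higher and 12 lower. Isg15, a ubiquitin-like modifier, was at 103, 112 and 156 CPM in HT-DNA+AOA, 37.6, 38.5 and 30.6 CPM in HT-DNA+AOA+Asp and 44.2, 47 and 53.5 CPM in HT-DNA. Each library with aspartate lay below each library of both other groups. The fall of Isg15 was 1.80 on the log2 scale (adjusted p = 6.94e-09), and it stayed below HT-DNA by a log2 fold change of -0.44 (adjusted p = 0.0132). Ifit1, which binds foreign 5′ RNA ends, was at 214, 177 and 182 CPM in HT-DNA+AOA, 72.4, 73.3 and 70.4 CPM with aspartate, and 58.4, 70.1 and 69.3 CPM in HT-DNA. Its libraries with aspartate were below those of HT-DNA+AOA without overlap, with a log2 fold change of -1.41 ± 0.0954 (SE, adjusted p = 1.6e-09), and the difference left of 0.13 was not called (adjusted p = 0.288).

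The families of this list fell by different amounts. Slfn2, a Schlafen family member, went from 37.1, 39.4 and 47.2 CPM to 3.34, 4.28 and 3.27 CPM, which was also below the 5, 4.55 and 5.55 CPM of HT-DNA. Its log2 fold change was -3.50 (adjusted p = 1.93e-13). Mx2, a dynamin-like GTPase with antiviral activity, went from 18, 14 and 12.2 CPM to 0.822, 1.16 and 0.899 CPM (log2 fold change -3.94, adjusted p = 1.71e-08), with HT-DNA at 0.874 to 1.21 CPM. The immunity-related GTPases Irgm2 and Igtp, which act on pathogen vacuoles, fell by 2.76 and 2.65. Among the oligoadenylate synthetase genes, whose products activate RNase L, Oas3 fell by 2.53 and Oas1a by 1.34, and the related Oasl1 by 1.62. Ifi203 and Ifi207 of the Ifi200 family of DNA-binding proteins fell by 2.08 and 1.84. Rsad2 (viperin) was at 96.7, 56.7 and 56.1 CPM in HT-DNA+AOA and 14.7, 14.1 and 13.2 CPM with aspartate, a log2 fold change of -2.32. Ifit2 had the smaller fall of 0.63, from 54.4, 30 and 31.6 CPM to 23, 25.1 and 27 CPM, was -0.30 without HT-DNA+AOA replicate 1, and was not called in a fit of the compared libraries alone (adjusted p = 0.0549). For several of these genes, Ifit2, Rsad2 and Ifi203 among them, the replicate 1 library of HT-DNA+AOA was the highest, whereas for Isg15 and Slfn2 it was the lowest of its group.

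Some members were near 0 outside HT-DNA+AOA. Tgtp1, another interferon-inducible GTPase, had 20, 26 and 11 counts in HT-DNA+AOA, 2, 0 and 2 with aspartate, and 0 in each of the other 12 libraries. Ifi205 had 27, 21 and 28 counts in HT-DNA+AOA and 2, 2 and 0 with aspartate. Ifi47 had 37, 18 and 18 counts and then 2 in each library with aspartate. A count of 0 allows up to 3 counts, by counting error only, so no fold change is given for these genes. The effector that rose was Samhd1, a dNTP hydrolase, from 58.8, 49.1 and 49.8 CPM to 61.7, 61.9 and 64.3 CPM (log2 fold change 0.25, adjusted p = 0.00932), and it was not called without HT-DNA+AOA replicate 2 (adjusted p = 0.0555). Ifitm2, Pml, Lgals3bp and Pnpt1 were not called, at log2 fold changes of -0.16 to 0.06. Of 15 alternative settings Lgals3bp was called lower in 4, DESeq2 among them (adjusted p = 0.024), Pml lower in 2 and Ifitm2 higher in 1.

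**Figure D2:**
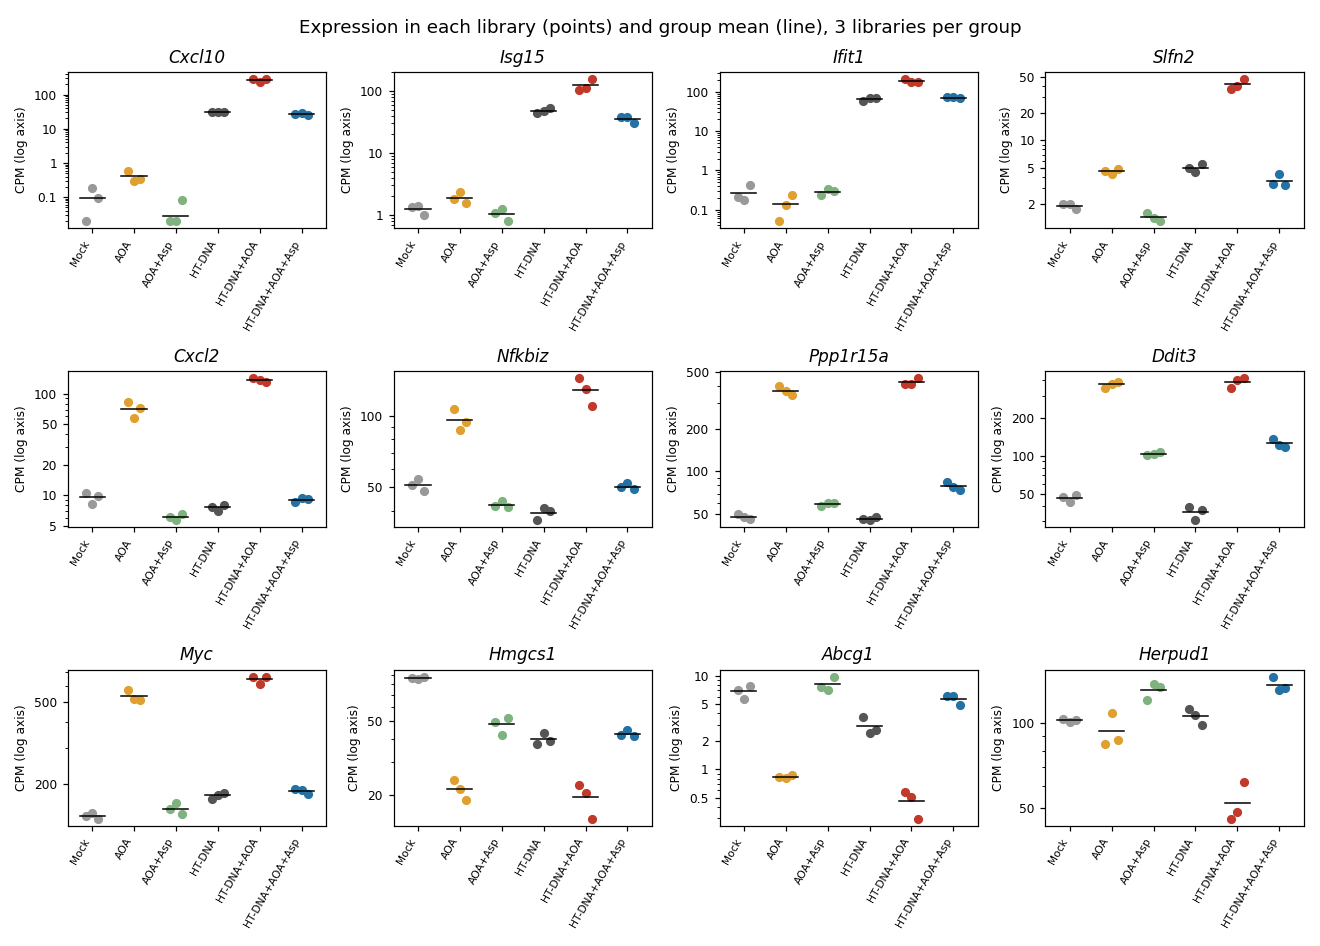
Level of 12 genes in each library (points, CPM on a log axis, each panel with its own range) in the 6 groups, with the group mean as a line and 3 libraries per group. Values under 0.02 CPM are drawn at 0.02 CPM. For the 9 genes from Cxcl10 to Myc the HT-DNA+AOA libraries (red) lie above those with aspartate (blue), and for Hmgcs1, Abcg1 and Herpud1 they lie below.

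Upstream of the effectors the genes moved in both directions. Ifnb1 itself was at the edge of detection, with 6, 4 and 2 counts in HT-DNA+AOA, 1, 0 and 0 with aspartate, and 0 in the other 12 libraries, and was not tested. Of 22 interferon signalling genes 16 were tested, and 10 fell (62.5%) and 5 rose (31.2%), compared with 23.9% and 23.7% of all genes. Without HT-DNA+AOA replicate 2 or without HT-DNA+AOA+Asp replicate 2 or 3 there were 3 higher. Irf7, the interferon-induced factor for type I interferon genes, was at 26, 19.6 and 27.3 CPM in HT-DNA+AOA, 3.97, 3.9 and 3.74 CPM with aspartate and 4.55, 4.97 and 4.98 CPM in HT-DNA. Its log2 fold change was -2.65 ± 0.146 (SE, adjusted p = 9.1e-11). Usp18, which removes ISG15 and restrains receptor signalling, fell by 3.44, from 43.9, 35.7 and 50.4 CPM to 4.59, 4.04 and 3.31 CPM. Irf9 and Stat2, which act together downstream of the interferon receptor, fell by 1.48 and 0.67, as did Irf1 by 0.76 and Irf3, which is activated by phosphorylation rather than by its mRNA level, by 0.40. The genes that rose were Ifnar1 (0.49), a receptor chain, the kinases Jak1 (0.41) and Tyk2 (0.55), Pias1 (0.38) and Socs3 (0.26). Jak1 was not called in a fit of the compared libraries alone (adjusted p = 0.0673) and was 0.27 without HT-DNA+AOA replicate 3. Pias1 was not called without any 1 of the compared libraries other than HT-DNA+AOA replicate 1 (adjusted p of 0.06 to 0.149). Socs3 was not called without HT-DNA+AOA replicate 1 (adjusted p = 0.0737) or 2 (0.0614) or without HT-DNA+AOA+Asp replicate 2 (0.0531) or 3 (0.0774). Socs3 was at 58.3, 51.5 and 60.1 CPM in HT-DNA, 17.4, 18.7 and 20.5 CPM in HT-DNA+AOA and 21.7, 22.7 and 23.5 CPM with aspartate, with a difference left of -1.32 (adjusted p = 1.62e-08).

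All 23 genes of cytosolic nucleic acid sensing were tested, with a median of -0.04. Of these 11 fell (47.8%) and 7 rose (30.4%), compared with 23.9% and 23.7% of all genes. Zbp1, a sensor of Z-form nucleic acid, was at 9.77, 8.93 and 9.72 CPM in HT-DNA+AOA, 1.74, 1.4 and 2.04 CPM with aspartate, and 2.22, 2.56 and 2.79 CPM in HT-DNA. All its libraries with aspartate lay below those of both other groups, with a log2 fold change of -2.45 ± 0.218 (SE, adjusted p = 5.12e-08). The RNA sensors Rigi and Ifih1 fell by 1.66 and 1.09 and the DNA exonuclease Trex1 by 1.85. Cgas, the DNA sensor, was at 12.4, 11.2 and 8.41 CPM in HT-DNA+AOA and 7.45, 8.08 and 8.81 CPM with aspartate. The groups overlapped, and its log2 fold change of -0.40 (adjusted p = 0.0226) was lost without HT-DNA+AOA replicate 1 (adjusted p = 0.103), without HT-DNA+AOA replicate 2 (0.0735), and without HT-DNA+AOA+Asp replicates 1 (0.0912) or 2 (0.0579). Sting1 went the other way, from 5.17, 5.18 and 5.55 CPM to 6.77, 7.5 and 6.2 CPM (log2 fold change 0.37, adjusted p = 0.0135), and was not called without HT-DNA+AOA+Asp replicate 2 (adjusted p = 0.072). The kinases Tbk1 and Ikbke rose by 0.82 and 0.51, the adaptor Mavs by 0.46 and Ripk1 by 0.85, whereas Ripk3 (log2 fold change -0.04) and Mlkl (-0.03) were not called.

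MHC class I antigen presentation fell more modestly and below the level of HT-DNA. All 20 of its genes were tested, and 13 fell (65%) and 1 rose (5%), compared with 23.9% and 23.7% of all genes. Their median was -0.49. The gene that rose, Pdia3 (0.21), was not called without HT-DNA+AOA replicate 3 or HT-DNA+AOA+Asp replicate 1 or 3. In the AOA effect 9 were higher and 2 lower, with a median of 0.20. The difference left had 12 lower and 3 higher and a median of -0.32. H2-Q4, a class Ib heavy chain gene, was at 110, 105 and 118 CPM in HT-DNA+AOA and 49.7, 49 and 50.8 CPM with aspartate, below the 55.7 to 60.4 CPM of HT-DNA, and fell by 1.15. The peptide transporter gene Tap1 fell by 1.10, the classical heavy chain genes H2-D1 and H2-K1 by 0.62 and 0.58, and B2m by 0.36, or 0.22 without HT-DNA+AOA replicate 3. The 3 HT-DNA+AOA libraries differed here, with a median log2 ratio of the list to the HT-DNA mean of -0.02, 0.18 and 0.44, whereas the 3 with aspartate were at -0.30, -0.30 and -0.29. The heavy chain genes are near-identical in part, so reads could be split between them.

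Chemokines and cytokines had the largest median fall of the 26 gene lists in the main fit. Of 32 genes 21 were tested, and 18 fell (85.7% against 23.9% of all genes) and 1 rose, with a median of -2.38. As among the effectors, a gene that passed the filter through HT-DNA+AOA alone could only fall. Where every library needed 10 counts, 9 were lower, with a median of -1.53. In the AOA effect 18 were higher and 2 lower (median 1.79), and in the difference left 6 were lower (median -0.29). Cxcl10, the interferon-induced chemokine that draws in T cells and NK cells, was at 279, 234 and 286 CPM in HT-DNA+AOA, 26.8, 28 and 25.4 CPM with aspartate, and 30.7, 30.6 and 31.2 CPM in HT-DNA. The libraries with aspartate were the lowest of the 3 groups without overlap, the log2 fold change was -3.32 ± 0.118 (SE, adjusted p = 1.93e-13), and the difference left of -0.21 was not called (adjusted p = 0.149). Cxcl2, which draws in neutrophils, went from 144, 136 and 132 CPM to 8.56, 9.43 and 9.23 CPM, with 7.73, 7.06 and 8.08 CPM in HT-DNA. Its log2 fold change was -3.92 ± 0.123 (SE, adjusted p = 5.53e-14).

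Its relatives and the monocyte chemokines moved alike in direction. Cxcl1 was at 904, 890 and 998 CPM in HT-DNA+AOA and 109, 119 and 121 CPM with aspartate, below the 154 to 166 CPM of HT-DNA (adjusted p = 5.53e-14, difference left -0.46). Ccl2 went from 1422, 1451 and 1604 CPM to 476, 493 and 502 CPM, within the range of 481 to 510 CPM of HT-DNA apart from 1 library below it. Ccl7 and Ccl5, which also attract leukocytes through CC receptors, fell by 1.54 and 2.52. Of the cytokines, Il6 fell by 3.04, Lif of the same family by 2.08, the alarmin Il33 by 2.88, and Csf1, the macrophage growth factor, by 1.52. Csf1 was at 4124, 3589 and 4234 CPM in HT-DNA+AOA and 1422, 1367 and 1385 CPM with aspartate, below the 1793 to 1874 CPM of HT-DNA. Ccl20 had 59, 40 and 44 counts in HT-DNA+AOA and 4, 0 and 2 with aspartate. Il11 was the gene that rose, at 0.205 to 0.575 CPM before and 0.473 to 1.11 CPM with aspartate (log2 fold change 1.02, adjusted p = 0.0498). Its groups overlapped, and the call was lost without HT-DNA+AOA replicate 2 (adjusted p = 0.203) or 3 (0.135) and without HT-DNA+AOA+Asp replicate 1 (0.0619) or 2 (0.293), and its value was 1.54 without HT-DNA+AOA replicate 1. Cxcl16 and Il34 were not called.

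Of 18 tested NF-κB subunits and feedback genes 12 fell (66.7%) and 1 rose (5.56%), compared with 23.9% and 23.7% of all genes. Their median was -0.59. The gene that rose was Cyld (0.28), a call that was lost without HT-DNA+AOA replicate 2 or 3 or HT-DNA+AOA+Asp replicate 2 or 3. Traf1, an adaptor of TNF receptors, fell by 1.90, and the subunit genes Relb and Nfkb2 by 1.60 and 1.17. Nfkbiz, a nuclear IκB protein, was at 144, 129 and 110 CPM in HT-DNA+AOA, 50, 52 and 49.1 CPM with aspartate and 36.6, 40.9 and 40 CPM in HT-DNA. It fell by 1.34 and stayed above HT-DNA by 0.36 (adjusted p = 0.00418), whereas Relb and Nfkb2 were below HT-DNA by a log2 fold change of -0.64 and -0.43.

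**Figure D3:**
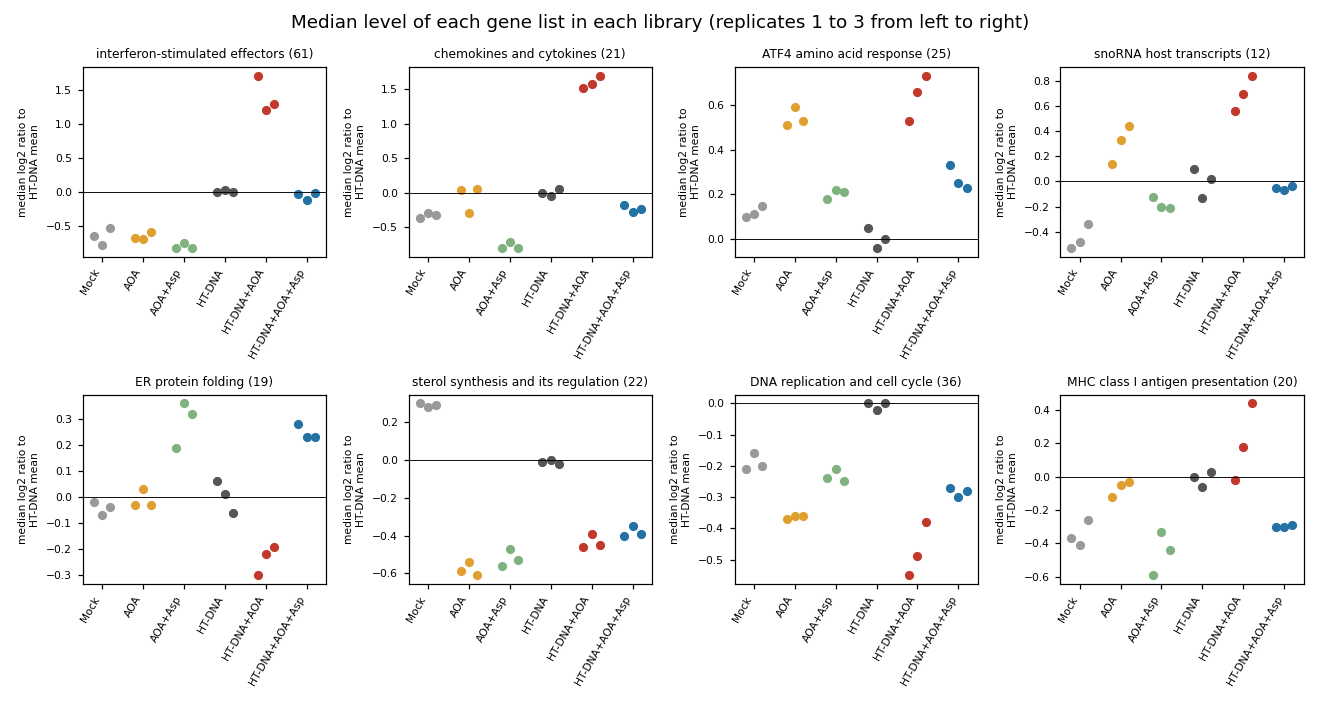
Median over the members of 8 gene lists of the log2 ratio of their level (CPM plus 0.5) to the HT-DNA mean, for each library (points, replicates 1 to 3 from left to right) of the 6 groups. For interferon-stimulated effectors the HT-DNA+AOA libraries sit at 1.21 to 1.71 and those with aspartate at -0.12 to -0.01, and for the ATF4 amino acid response they sit at 0.53 to 0.73 and 0.23 to 0.33.

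The ATF4 amino acid response fell part of the way. Of 25 members tested 16 fell (64%) and 5 rose (20%), compared with 23.9% and 23.7% of all genes. Their median was -0.47. The AOA effect on them was 18 higher and 3 lower (median 0.68). The difference left was 15 higher (60%) and 2 lower (8%), compared with 23.2% and 23.5% of all genes, with a list median of 0.25. Ddit3 (CHOP), a transcription factor of the stress response, was at 346, 397 and 417 CPM in HT-DNA+AOA, 137, 121 and 118 CPM with aspartate and 38.9, 30.9 and 36.9 CPM in HT-DNA. Each library with aspartate lay between the other groups, with a log2 fold change of -1.63 ± 0.0892 (SE, adjusted p = 9.1e-11) and a difference left of 1.82 (adjusted p = 4.66e-10). Ppp1r15a (GADD34), which guides the phosphatase of eIF2α, went from 414, 410 and 454 CPM to 84.9, 78.1 and 74.2 CPM, with 46.2, 45.8 and 48 CPM in HT-DNA. Its log2 fold change was -2.43 and the difference left 0.76 (adjusted p = 1.09e-06). Chac1, which degrades glutathione, fell by 1.51, and Trib3, a pseudokinase, by 0.80, and both stayed above HT-DNA, by 0.77 and 0.69. Asns, asparagine synthetase, which uses aspartate, was at 503, 531 and 534 CPM in HT-DNA+AOA, 435, 435 and 417 CPM with aspartate and 360 to 403 CPM in HT-DNA (log2 fold change -0.28, adjusted p = 0.000499).

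Other members of this list did not fall. Atf4 mRNA was at 569, 676 and 758 CPM in HT-DNA+AOA and 640, 631 and 624 CPM with aspartate, values that overlapped (log2 fold change -0.08, adjusted p = 0.43). Correction for GC content and length, chosen after seeing the data, gave 0.10 for Atf4. Vldlr, a lipoprotein receptor, was at 80.9, 66.6 and 52.8 CPM in HT-DNA+AOA, 70.1, 70 and 76.4 CPM with aspartate and 28.4 to 31.8 CPM in HT-DNA, so that both groups with AOA lay above HT-DNA (difference left 1.25). The share of members that rose (20%) was near that of all genes (23.7%). Those that rose included 3 eIF2α kinases, which act upstream of ATF4. These were Eif2ak3 (PERK) at 1.38, Eif2ak1 at 0.45 and Eif2ak4 (GCN2) at 0.54. Eif2ak4 was not called without HT-DNA+AOA replicate 2 (adjusted p = 0.0691) or 3 (adjusted p = 0.0776). The other risers were Herpud1 (1.41), which is also counted with the ER genes below, and Atf5 (0.41). Atf5 was not called in a fit of the compared libraries alone (adjusted p = 0.0897), and its value was 0.25 without HT-DNA+AOA replicate 1, as that of Eif2ak4 was 0.88 without it and 0.33 without replicate 3.

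Of 17 tested genes for the synthesis, use and uptake of aspartate 4 rose (23.5%) and 6 fell (35.3%), with a median of -0.11. Over all genes tested 23.7% rose and 23.9% fell. The transaminase genes Got1 and Got2, whose products AOA inhibits, fell by 0.51 and 0.35, and Gpt2, alanine transaminase, was not called (log2 fold change -0.11, adjusted p = 0.142) and stayed above HT-DNA by 0.56. The mitochondrial aspartate-glutamate carriers Slc25a13 and Slc25a12 rose by 0.83 and 0.52, and Slc25a13 was at 29.8, 30.2 and 28.4 CPM in HT-DNA+AOA, 54.9, 51.5 and 51.2 CPM with aspartate and 47.2, 48.6 and 43.1 CPM in HT-DNA. The aspartate transporter gene Slc1a3 had at most 1 count in the 6 libraries and was not tested. Of 18 amino acid transporter genes 9 were lower (50%) and 4 higher (22.2%). Slc7a5 and Slc3a2, the light and heavy chains of a neutral amino acid exchanger, fell by 0.82 and 0.66, whereas Slc7a11, the cystine carrier, rose from 26.3, 23.6 and 18 CPM to 40.7, 45.4 and 42.6 CPM and lay above HT-DNA by 1.17. Of 20 aminoacyl-tRNA synthetase genes 12 fell (60%), with a median of -0.24, and 16 were higher in the AOA effect (80% against 22.8% of all genes). Of 28 tested pyrimidine genes 13 fell (46.4%) and 2 rose (7.14%), or 1 without HT-DNA+AOA replicate 2. Umps, the last enzyme of UMP synthesis, fell by 0.59, and Cad, the enzyme that joins aspartate to carbamoyl phosphate, was at 468, 448 and 530 CPM and then 442, 434 and 427 CPM (log2 fold change -0.15, adjusted p = 0.113). Of 15 purine genes 5 fell (33.3%) and 3 rose (20%), near the shares of all genes. Of 15 serine and one-carbon genes 7 fell (46.7%) and 3 rose (20%).

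Sterol synthesis rose in part. Of 22 members tested 9 rose (40.9%) and 4 fell (18.2%), compared with 23.7% and 23.9% of all genes. Their median was 0.11, and 7 fell without HT-DNA+AOA replicate 1. In the AOA effect 16 were lower and 1 higher (median -0.41), and 16 stayed lower than HT-DNA with aspartate (median -0.39). Hmgcs1, at the head of the mevalonate pathway, went from 22.7, 20.5 and 14.8 CPM to 42, 44.8 and 41.9 CPM, with 37.6, 43.5 and 39.4 CPM in HT-DNA. Each library with aspartate lay above those of HT-DNA+AOA and within or just above the range of HT-DNA, with a rise of 1.14 ± 0.122 (SE, adjusted p = 4.88e-07) and a difference left of 0.10 (adjusted p = 0.522). Mvd, Dhcr7 and Insig1 rose by 1.12, 0.85 and 0.80, and each stayed below HT-DNA, with a difference left of -0.86, -0.78 and -0.46. Cyp51 (log2 fold change 0.03) and Sqle (0.00) were not called, and Lss, Fdps, Fdft1 and the regulator Srebf2 fell by 0.49, 0.42, 0.38 and 0.36, with Fdps at -0.25 without HT-DNA+AOA replicate 3.

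Of 19 tested genes of the LXR and SREBP1 lipid program 11 rose (57.9%) and 3 fell (15.8%), compared with 23.7% and 23.9% of all genes. Their median was 0.25, with 11 lower and a median of -0.25 in the AOA effect. Abcg1, which exports cholesterol, was at 0.575, 0.513 and 0.298 CPM in HT-DNA+AOA, 6.09, 6.11 and 4.83 CPM with aspartate and 3.64, 2.46 and 2.62 CPM in HT-DNA. Its rise of 3.58 ± 0.25 (SE, adjusted p = 2.3e-09) took it above HT-DNA by 0.97 (adjusted p = 0.00055). Its partner Abca1 went from 29, 21.8 and 15.4 CPM to 53.3, 59.5 and 59.1 CPM, above the 26 to 38 CPM of HT-DNA. Lpin1, a phosphatidate phosphatase, rose by 1.96 and the desaturase gene Scd2 by 0.98. Angptl4, an inhibitor of lipoprotein lipase, fell instead, from 104, 114 and 143 CPM to 51.5, 52 and 54.5 CPM, and lay below the 138 to 152 CPM of HT-DNA (difference left -1.44).

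ER protein folding rose without a fall among its members. Of 19 tested 14 rose (73.7% against 23.7% of all genes), with a median of 0.39. Of the 19, 0 fell in edgeR, in DESeq2 or at an unadjusted p under 0.05. They had 3 higher and 11 lower in the AOA effect and 10 higher and 4 lower in the difference left. Herpud1, which helps remove misfolded ER proteins, was at 45.7, 48.4 and 61.8 CPM in HT-DNA+AOA, 147, 132 and 134 CPM with aspartate and 113, 107 and 98.8 CPM in HT-DNA. The libraries with aspartate were the highest of the 3 groups, with a log2 fold change of 1.41 ± 0.108 (SE, adjusted p = 7.28e-09). Syvn1, the ubiquitin ligase of the same route, rose by 1.30 (difference left -0.08, adjusted p = 0.493), and the co-chaperone genes Dnajb9 and Dnajc3 rose by 1.08 and 0.86 to above HT-DNA. Hsp90b1 and Xbp1 rose by 0.49 and 0.45. The chaperone gene Hspa5 (BiP) was at 4995, 4907 and 4334 CPM and then 5720, 5311 and 5585 CPM, a rise of 0.22 that was not called in a fit of the compared libraries alone (adjusted p = 0.106).

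DNA replication and cell cycle genes rose by small amounts. All 36 were tested, and 15 rose (41.7%) and 2 fell (5.56%), compared with 23.7% and 23.9% of all genes. Their median was 0.17, with 5 lower without HT-DNA+AOA replicate 1 and 4 without replicate 3. In the AOA effect 22 were lower and 2 higher (median -0.46). Of the 36, 23 stayed lower than HT-DNA with aspartate and 5 were higher (median -0.27). Cdc6, which loads the replicative helicase, went from 22.2, 19.7 and 20.3 CPM to 42.2, 38.7 and 37.6 CPM, with 55, 52.2 and 47.7 CPM in HT-DNA, a rise of 0.93 that left the groups apart. Pcna, the polymerase clamp, rose by 0.53 and Plk1, a mitotic kinase, by 0.63, and both stayed below HT-DNA, by a log2 fold change of -0.22 and -0.79. Top2a rose by 0.73, but its HT-DNA+AOA libraries were wide apart, at 307, 247 and 179 CPM compared with 387, 411 and 422 CPM with aspartate. Ccnd1, which drives entry into the cycle, fell by 0.26, which was not called in a fit of the compared libraries alone (adjusted p = 0.0646).

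Host transcripts of small nucleolar RNAs, most of which are spliced and degraded during translation, fell to near the level of HT-DNA. Of 12 tested 9 fell (75%) and 1 rose (8.33%), compared with 23.9% and 23.7% of all genes. Their median was -0.68, with 10 higher and 2 lower in the AOA effect (median 0.67). In the difference left 1 was lower, with a median of -0.07. Snhg1 was at 381, 515 and 517 CPM in HT-DNA+AOA, 159, 171 and 167 CPM with aspartate and 180, 140 and 154 CPM in HT-DNA, a fall of 1.51 ± 0.107 (log2 fold change -1.51, adjusted p = 3.01e-09). Snhg12 fell from 103, 119 and 136 CPM to 42.8, 42.2 and 41.7 CPM, and Snhg5 and Snhg15 fell by 1.07 and 1.06. The gene that rose was Snhg3 (0.36), which was not called without HT-DNA+AOA replicate 1 (adjusted p = 0.135) or without HT-DNA+AOA+Asp replicate 2 (0.0739) or 3 (0.0874).

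Immediate early and p53 genes fell more often than they rose, and NRF2 genes rose more often than they fell. Over all genes tested 23.7% rose and 23.9% fell. Of 33 immediate early and ERK feedback genes 16 fell (48.5%) and 3 rose (9.09%), with a median of -0.36. Compared with HT-DNA 17 were lower and 4 higher (median -0.54). Myc, a growth-promoting transcription factor, was at 668, 615 and 663 CPM in HT-DNA+AOA, 189, 186 and 179 CPM with aspartate and 169, 177 and 181 CPM in HT-DNA (log2 fold change -1.81, difference left 0.07, adjusted p = 0.362). Dusp5, a phosphatase of ERK, fell by 1.80, and Junb by 1.04, and both ended below HT-DNA, by a log2 fold change of -1.05 and -1.49. Fos was at 0.157 to 0.411 CPM and 0.145 to 0.426 CPM in the groups without and with aspartate and at 0.809 to 1.22 CPM in HT-DNA, and was not called (adjusted p = 0.809). Of 20 p53 targets 11 fell (55%) and 4 rose (20%), with 2 higher without HT-DNA+AOA replicate 2. Plk2 and Gdf15 fell by 1.86 and 1.25 (difference left -0.02 and 0.18, not called), Cdkn1a, a cell cycle inhibitor, by 0.84 to below HT-DNA (difference left -0.61), and Ccng2 rose by 1.68. Of 17 NRF2 antioxidant genes 8 rose (47.1%) and 3 fell (17.6%). Pgd, of the pentose phosphate route, went from 121, 144 and 162 CPM to 338, 322 and 313 CPM, with 396 to 426 CPM in HT-DNA.

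Of 23 genes for mtDNA replication, transcription and repair 11 fell (47.8%) and 3 rose (13%), compared with 23.9% and 23.7% of all genes. Their median was -0.27, and 5 rose without HT-DNA+AOA replicate 3. Tfam, which packages mtDNA, was at 57.9, 64 and 62.3 CPM and then 49.7, 48.7 and 54.1 CPM (log2 fold change -0.27, adjusted p = 0.00279), and was not called in a fit of the compared libraries alone (adjusted p = 0.054). Of the 13 mitochondrially encoded mRNAs edgeR called 2 higher (15.4%), mt-Nd1 and mt-Nd2, and 0 lower, with 1 lower at an unadjusted p under 0.05. DESeq2 called 1 lower, and edgeR 3 lower with no filter on low counts and 2 without HT-DNA+AOA replicate 1, mt-Nd3 (log2 fold change -0.54, adjusted p = 0.0203) and mt-Atp6 (-0.52, 0.0404). mt-Nd1, a complex I subunit, was at 2743, 2607 and 2690 CPM in HT-DNA+AOA, 3912, 3914 and 3999 CPM with aspartate and 4166 to 4902 CPM in HT-DNA, a rise of 0.56.

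To ask whether aspartate acted differently in DNA-stimulated cells, its effect was compared with that in AOA cells without HT-DNA, a comparison of other libraries. There 3345 genes rose (23.5%) and 3255 fell (22.8%), 46.3% in all. Across the 14263 genes the log2 fold changes of both had a Pearson r of 0.682 and a Spearman rho of 0.792, a description across genes, which are not independent replicates. The interaction was called for 150 genes (1.05%), 112 with a lower aspartate effect in HT-DNA cells (0.785%) and 38 with a higher one (0.266%). The split depended on the setting, with 182 higher and 188 lower of 370 without HT-DNA+AOA replicate 1, 170 and 246 of 416 without its replicate 3, 116 and 206 in DESeq2, and 187 and 215 with a correction for GC content and length that was chosen after seeing the data. The 150 fell to between 69 and 98 without HT-DNA+AOA replicate 2, AOA replicate 1 or 2, AOA+Asp replicate 1 or 2 or any library of HT-DNA+AOA+Asp. Of the 112, 33 were in the interferon, sensing or MHC lists and 0 in the chemokine list, and of the 38 none were in either. By list, in which a gene can occur more than once, they were 24 of 61 effectors (39.3%), 6 of 16 signalling genes (37.5%) and 4 of 23 sensing genes (17.4%). The share of all genes was 0.785%. For lists as short as MHC (0 of 20) and chemokines (0 of 21), a count of 0 is near that share and sets neither list apart. Of the 112, 100 had a fall with HT-DNA as fitted and 72 a rise without it.

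Of 61 interferon-stimulated effectors, 24 had a called interaction, all lower. Without HT-DNA the median log2 ratio of this list to the HT-DNA mean was -0.68, -0.69 and -0.59 in AOA. It was -0.65, -0.77 and -0.53 in Mock and -0.82, -0.74 and -0.82 in AOA+Asp. The list median was thus not raised by AOA without DNA, and whether this bears on the interaction was not tested. Irf7 fell by 2.65 with HT-DNA and had a log2 fold change of -0.23 without it, an interaction of -2.42 (adjusted p = 1.91e-05). Ifit1 fell by 1.41 with HT-DNA and had a log2 fold change of 1.08 without it (interaction -2.49, adjusted p = 0.0262), though at under 0.5 CPM in each library without DNA. Chemokines fell with and without HT-DNA, with 18 and 14 of 21 lower and medians of -2.38 and -1.33. Of their interactions, 0 were called by edgeR or DESeq2, and 5, all lower with HT-DNA, had an unadjusted p under 0.05. The median interaction was -0.28, and an interaction that was not called does not show equal effects. Cxcl2 fell by 3.92 with HT-DNA and 3.53 without it (interaction -0.39, adjusted p = 0.419). In the ATF4 program 16 and 15 of 25 were lower, with Ddit3 at -1.63 and -1.82 (interaction 0.20, adjusted p = 0.647). The interactions called there were Herpud1 (0.92) and Eif2ak3 (0.69), which rose more with HT-DNA, and Nupr1 (-0.53). ER folding had 3 called interactions, all higher, in Herpud1, Dnajb9 (0.70) and Xbp1 (0.47).

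**Figure D4:**
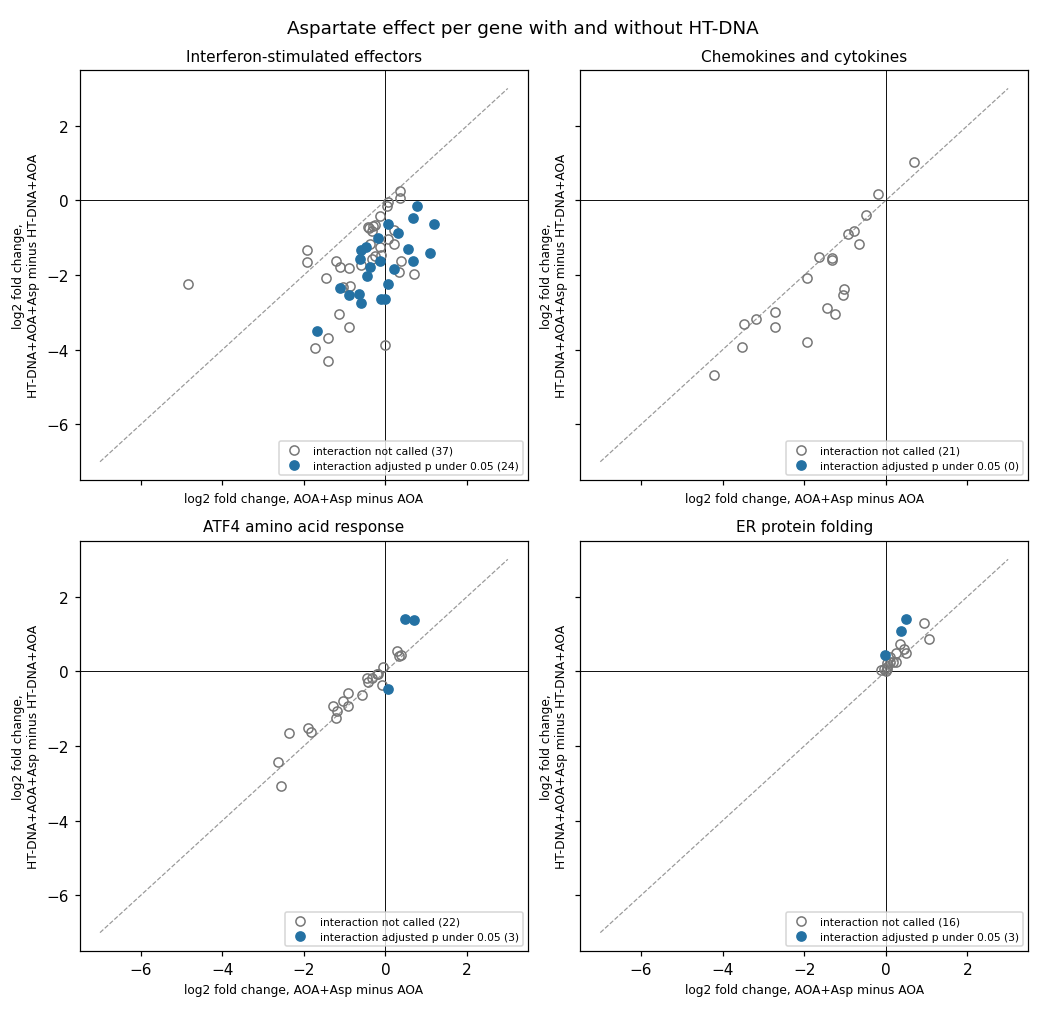
Fitted log2 fold change with aspartate in AOA cells without HT-DNA (x axis) against that in HT-DNA+AOA cells (y axis) for the members of 4 gene lists (points), with blue points for genes whose interaction had an adjusted p under 0.05 and the dashed line for equal effects. Interferon-stimulated effectors spread below the line, 24 of 61 of them blue. Of chemokines 0 of 21 were blue, with a median interaction of -0.28 (range -1.87 to 0.36). Of ATF4 targets 3 of 25 were blue, with a median interaction of 0.15.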

How the data were processed

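RNA extracted with TRIzol from the 18 L929 cultures was sequenced as mRNA libraries by a commercial provider, and the authors deposited 1 table of expected counts per gene for 57180 Ensembl genes, of which 11.6% of values were not whole. The aligner, counter, annotation and genome build behind that table are not given in the sources used here. Expected counts had been anticipated as raw counts, so they were rounded to whole numbers. The group-mean columns of the table were not used.

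All 18 libraries entered 1 fit in edgeR 4.0.16 (R 4.3.3), with TMM scaling, filterByExpr (minimum count 10, minimum total 15, groups of 3), robust quasi-likelihood dispersion and Benjamini-Hochberg adjustment over the 14263 genes kept. Contrasts were HT-DNA+AOA+Asp minus HT-DNA+AOA, HT-DNA+AOA minus HT-DNA, HT-DNA+AOA+Asp minus HT-DNA, AOA+Asp minus AOA, and the interaction. The groups follow the sample titles.

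The members, gene lists and tests were chosen with earlier results of these data known. The text names the 10 largest rises and falls among called genes at 1 CPM or more whose replicates did not overlap, up to 6 members of each list with the largest changes, and a fixed set of genes from sensing to metabolism. Other list members were named after their values were seen, to describe families, and some genes of the rule are not reported here. On simulated counts for 13996 genes with 200 changed, the fit recovered 80.4% of changes of 1 and 94.6% of changes of 2 on the log2 scale, with 3.35% of calls false. The simulation gave each gene the same dispersion in every group. Its rates therefore do not cover the wider spread of the HT-DNA+AOA libraries, or changes in as many genes as were called here. DESeq2 1.42.0, other normalizations, filters, samples and a replicate block were tried. Library totals were 17901605 to 24057343, and limits from counts cover counting error only. Promoter windows and motifs came from RefSeq on GRCm38.p6, searched on both strands.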

Additional observations from a re-analysis of the deposited data

Results flagged for a closer look

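Genes named in the text are given here where the aspartate effect differed between cells with and without HT-DNA by the interaction term of edgeR's fit, with the interaction as the log2 fold change with HT-DNA minus that without it. The interaction was called for 150 genes in all. Each named gene below had 3 libraries in each of the 4 groups, and no explanation was tested.

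The interaction was negative for the interferon signalling genes Irf7 (-2.42, adjusted p = 1.91e-05), Usp18 (-2.20, 0.00302), Irf1 (-1.54, 7.28e-06), Stat2 (-1.48, 1.91e-05) and Irf9 (-1.19, 1.91e-05). For Stat2 and Irf1 the fitted aspartate effect was below 0 with HT-DNA and 0.80 and 0.78 without it. Among effectors it was -2.63 for Igtp (adjusted p = 0.0081), -2.49 for Ifit1 (0.0262), -2.17 for Irgm2 (0.000905), -2.05 for Ifi207 (0.000119), -1.85 for Irgm1 (0.000162), -1.84 for Slfn2 (0.000104) and -1.82 for Ifit2 (0.00135). It was -1.64 for Oas3 (0.0164), -1.57 for Rtp4 (0.000123), -1.23 for Xaf1 (0.00754), -0.95 for Tor3a (7.28e-05), -0.91 for Pml (0.000157) and -0.74 for Oas1a (0.0464). The nucleic acid sensors and nuclease Tlr3 (-3.63, adjusted p = 0.00121), Trex1 (-2.02, 0.000159) and Rigi (-1.28, 0.00439) were likewise lower. For Tlr3 the fitted aspartate effect was -1.31 with HT-DNA and 2.32 without it. Tlr3, Ifit1 and Igtp had fewer than 10 counts in at least 1 library, so their interactions are limited by depth.

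Outside the interferon lists the interaction was negative for Cdkn1a (-0.64, adjusted p = 0.00493), Nfkbia (-0.56, 0.04) and Nupr1 (-0.53, 0.0156). It was positive for the ER genes Herpud1 (0.92, adjusted p = 0.00302), Dnajb9 (0.70, 0.00166) and Xbp1 (0.47, 0.0168), and for Ccng2 (0.72, 0.0473), Eif2ak3 (0.69, 0.0207) and Pdgfrb (0.45, 0.033).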

How the results depend on the processing

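The aspartate effect in HT-DNA+AOA cells called 5726 (without HT-DNA+AOA+Asp replicate 1) to 8008 genes (without HT-DNA+AOA replicate 1) when 1 library was left out, compared with 6797 in all. The AOA effect called 5569 to 7455, the difference left 5088 to 6507, the aspartate effect without HT-DNA 5426 to 6200 and the interaction 69 to 416. Fitting the compared libraries alone called 4278 genes for aspartate, 4167 for AOA and 66 for the interaction. Same-numbered libraries of HT-DNA+AOA+Asp and HT-DNA+AOA had deviations correlated at -0.0036, -0.016 and 0.052, and differently numbered ones at -0.083 to 0.089. These values showed no pairing by number but cannot settle whether cultures were paired. A replicate block called 3722 genes for aspartate, 3444 for AOA and 72 for the interaction. A log2 fold change of at least 1 in size left 1101 genes for aspartate, 1461 for AOA, 486 for the difference left, 1025 without HT-DNA and 54 for the interaction. For the interaction DESeq2 called 322, no filter on low counts 303 and a correction for GC content and length, chosen after seeing the data, 402. Where every library needed 10 counts, interferon-stimulated effectors lower with aspartate were 39 and chemokines lower were 9. Of other list counts, replication genes higher were 8 under the block, and ER folding genes higher were 9 in the compared libraries alone. With the fold-change minimum 7 ATF4 targets and 4 snoRNA hosts were lower, and 3 sterol, 0 replication and 3 ER genes higher. The GC and length correction turned 5 uncalled genes, S100a4 to 0.25, Atf4 to 0.10, Ifitm2 to 0.28, Ripk3 to 0.14 and Vldlr to -0.20. The cause of these changes was not tested, including in the settings with fewer samples or genes. With each library left out, interferon-stimulated effectors lower stayed at 53 to 55, chemokines lower at 18 to 19 and snoRNA hosts lower at 9. Genes with few counts, such as Ifnb1 and Tgtp1, are limited by depth.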

Other observations

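Ribosome biogenesis, HIF and extracellular matrix genes are described here for the aspartate effect in HT-DNA+AOA cells. Of 30 ribosome biogenesis genes 14 fell (46.7%) and 2 rose (6.67%), compared with 23.9% and 23.7% of all genes. Their median was -0.18. There were 4 higher without HT-DNA+AOA replicate 1 and 1 without any 1 of the other compared libraries except HT-DNA+AOA replicate 3. In the AOA effect 13 were higher and 3 lower. Nop56, a core protein of box C/D snoRNA particles, went from 755, 772 and 742 CPM to 395, 401 and 398 CPM, close to the 381 to 410 CPM of HT-DNA, a log2 fold change of -0.93. Of 30 HIF targets and glycolysis genes 9 rose (30%) and 11 fell (36.7%), with a median of -0.11. Over all genes tested 23.7% rose and 23.9% fell. Of the HIF list 6 fell without HT-DNA+AOA+Asp replicate 2 and 7 without its replicate 1 or HT-DNA+AOA replicate 3. Egln3, a prolyl hydroxylase that HIF induces, rose by 1.06, from 77.9, 83.3 and 81.9 CPM to 153, 172 and 181 CPM, and stayed below the 254 to 273 CPM of HT-DNA. Of 19 tested extracellular matrix genes 6 rose (31.6%) and 5 fell (26.3%), near the shares of all genes. Fn1, fibronectin, fell by 0.89, and Col1a2, a chain of collagen I, rose by 0.76.

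Among the largest changes were genes of no list. Gpr84, a receptor for medium-chain fatty acids on phagocytes, had 28, 22 and 23 counts in HT-DNA+AOA and 1, 1 and 0 with aspartate. Sspo had 63, 53 and 59 counts and then 1, 3 and 4, and Hhipl1 64, 53 and 45 and then 3, 2 and 4. Ifi209 of the Ifi200 family had 18, 27 and 23 counts and then 2, 0 and 1. The long noncoding or unnamed genes Gm17173, 4930438A08Rik and ENSMUSG00000121501 (no symbol in the table) had 17 to 49 counts in each HT-DNA+AOA library and 0 to 4 with aspartate. Of the largest rises, Cd300lb, a myeloid receptor gene, went from 0.313, 0.308 and 0.358 CPM to 3.05, 2.89 and 3.74 CPM, and Gper1, a membrane estrogen receptor, from 1.31, 1.08 and 1.85 CPM to 8.8, 8.13 and 8.99 CPM (log2 fold change 2.62). Slco4a1, an organic anion carrier, and Celsr1, a planar polarity cadherin, rose by 3.23 and 2.28, and Zfp133-ps and Gm47694 by 2.75 and 2.41. Gm1980 had 0, 8 and 0 counts in HT-DNA+AOA and 30, 27 and 19 with aspartate, and Gm12763 had 8, 2 and 1 and then 22, 20 and 22. Gm49450 had 10, 3 and 0 counts and then 40, 44 and 15, and was not called in DESeq2 (adjusted p = 0.125) or in edgeR without any 1 of the compared libraries other than HT-DNA+AOA+Asp replicate 3.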
